A study of Mus musculus with 6 samples.

Results

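Desmosome components were followed as 10 genes, taken by symbol from the count table: the desmocollins Dsc2 and Dsc3, the desmogleins Dsg2 and Dsg3, desmoplakin (Dsp), plakoglobin (Jup) and the plakophilins Pkp1, Pkp2, Pkp3 and Pkp4. All 10 symbols were found among the 55418 of the table. Polyadenylated RNA was sequenced from MOC2, a mouse oral squamous carcinoma cell line free of papillomavirus, in 6 untreated libraries. Of these, 3 are labelled as CRISPR control cells and 3 as EphA4 knockout cells of the single clone H3. All carry batch label 1, and the cells were passaged 2 times after thawing. The comparison line is itself labelled a control knockout, and whether it is a clone or a pool is not given in the sources used here. A difference between the groups therefore cannot be told apart from a difference between 1 clone and the control line.

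Desmosomes are junctions that rivet neighbouring epithelial cells together and tie their keratin filaments into a tissue-wide network. The desmosomal cadherins, desmogleins and desmocollins, meet their partners from the next cell outside the membrane. Inside, plakoglobin and the plakophilins bind the cadherin tails and desmoplakin, and desmoplakin holds the keratin filaments. Stratified squamous epithelium is known to switch between cadherin and plakophilin paralogs as its cells mature, while Dsg2, Dsc2 and Pkp2 are the forms found in simple epithelium and heart.

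The libraries held 35115926 to 41775031 counts each. The targeted gene Epha4, a receptor tyrosine kinase for ephrins, had 1907, 2110 and 2250 counts in control against 3483, 3815 and 3606 counts in the libraries labelled knockout, so its transcript goes against the label and the groups are called here by their labels only. Neither the edited exon nor the protein can be seen in gene-level counts. EphA4 knockout replicate 3 stood apart from its group (chi-square per degree of freedom 31.7 and 30.8 against the other 2, which differed from each other by 4.41). Nothing in the labels says that libraries of 1 group are separate cultures, so the p-values reflect a spread that may be technical only. Of 9 squamous epithelium markers, Cdh1 and Epcam were abundant at 725 ± 6.85 and 954 ± 30.6 CPM in control (counts scaled by library size and TMM factor, with SD, n = 3). In the libraries labelled knockout Cdh1 stood at 800 ± 24.7 CPM and Epcam, which fell, at 627 ± 15.9 CPM. The basal markers Krt5 and Trp63 had 2 counts each over the 3 control libraries and 0 and 2 over the knockout-labelled ones. A further basal keratin of the list, Krt14, had 424 counts in control against 199 in the libraries labelled knockout. Itgb4 (224 ± 13.5 and 268 ± 5.05 CPM) and Sfn (56.6 ± 0.38 and 108 ± 1.51 CPM) were well expressed. Of the 7 tested markers 4 (Cdh1, Itgb4, Sfn and Krt6a) were higher and 3 (Epcam, Krt14 and Krt17) lower in the libraries labelled knockout. Of all tested genes 71.5% were called in either direction.

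Of the 10 desmosome genes, 9 had enough counts to be tested. In edgeR's quasi-likelihood test with Benjamini-Hochberg adjustment over all 15199 tested genes, Dsc2, Dsp, Pkp1, Pkp3 and Pkp4 were higher in the knockout-labelled libraries, Dsg2 and Jup were lower, and Pkp2 and Dsg3 did not pass. The 7 calls are 77.8% of the tested members, near the 71.5% called over all tested genes (32.7% higher and 38.8% lower), so the share of calls is no result about these genes. Their median log2 fold change was 0.66 (the value of Dsg3, and the same with Dsc2 at its lower bound), beside -0.04 over all tested genes. Called members that differed at least 2-fold (1 on the log2 scale) were Dsc2 and Pkp1, 2 of 9, beside 30.5% of all tested genes. Dsc2 entered the test through the group in which it was found. The direction of every tested member was the same under all alternative settings that gave a value.

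**Figure D1:**
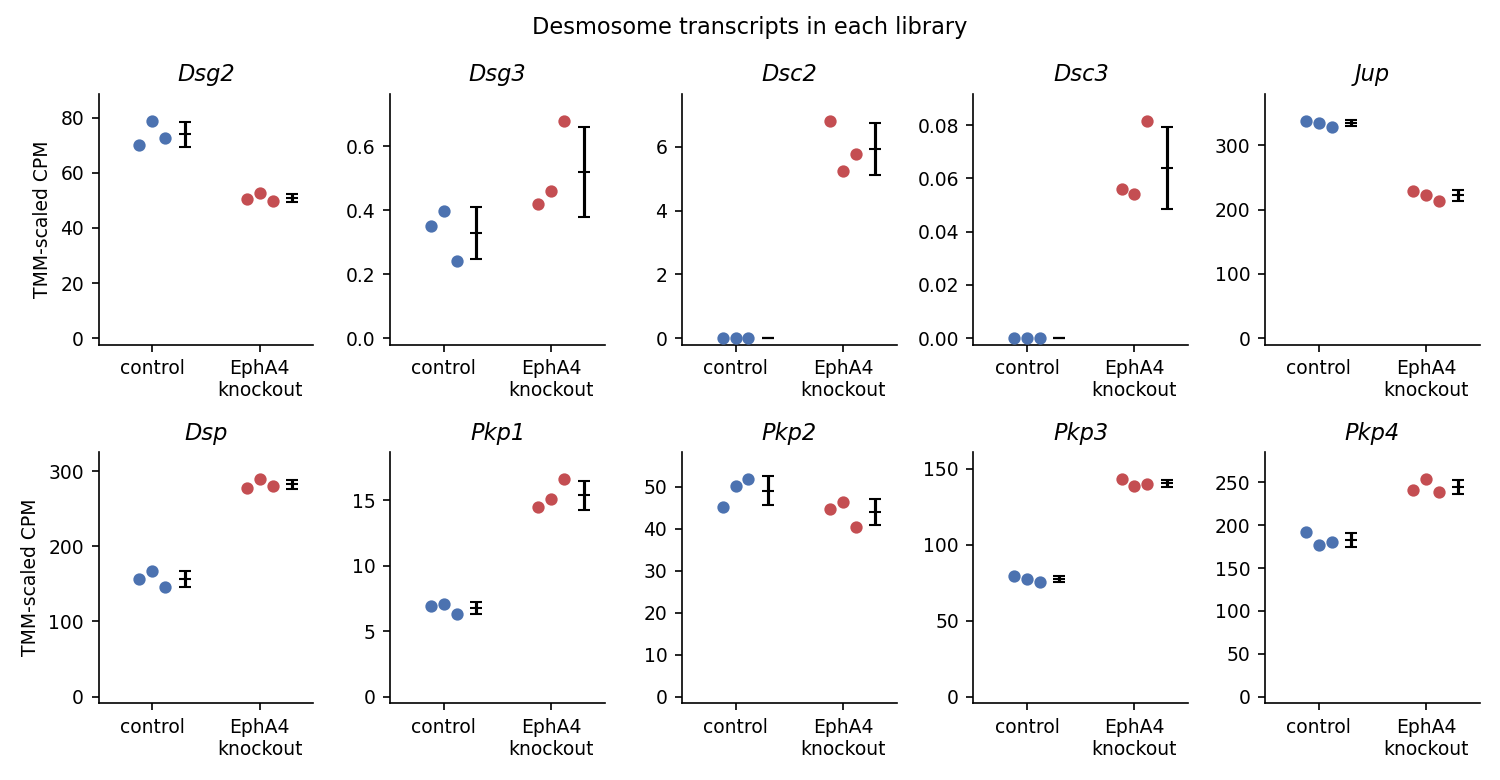
TMM-scaled CPM (linear axes starting near 0, one panel per gene) of the 10 desmosome genes in 3 control (blue) and 3 EphA4 knockout (red) libraries; black bars give the mean and SD. Points of the groups are apart in every panel but that of Pkp2, and Dsc2 and Dsc3 sit at 0 in control.

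Of the desmocollins, Dsc2 differed between the groups and Dsc3 had too few counts to test. Dsc2, the desmocollin of simple epithelia and heart, had 0 counts in each of the 3 control libraries and 244, 193 and 212 counts in the knockout-labelled libraries. All 3 knockout-labelled libraries lay above all 3 control libraries, and the gene was not detected in control at this depth. In TMM-scaled CPM the knockout-labelled level was 5.94 ± 0.81 (SD, n = 3), and Dsc2 was at least 224-fold higher, against a floor of 3 counts in the control libraries together. The edgeR adjusted p was 2e-06, but Dsc2 passed the filter only through the knockout-labelled libraries, so this p adds no support of its own. The floor of 3 in 113791216 control counts corresponds to 0.0264 CPM and covers counting error only. Dsc3, the desmocollin of basal stratified epithelium, had 0 counts in every control library and 2, 2 and 3 counts in the knockout-labelled libraries. It did not pass the filter on low counts and was not tested, and its 7 counts are at least 2.42-fold above the same floor. The third desmocollin gene, Dsc1, which is not among the 10, had 0 counts in all libraries except EphA4 knockout replicate 3, the library that stood apart, which had 5. The control libraries therefore held 0 counts of any desmocollin, which allows up to 0.0264 CPM for each of the 3 genes.

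The desmogleins were carried by 1 gene. Dsg2, the desmoglein found in nearly all desmosome-bearing tissues, had 2602, 2786 and 3033 counts in control against 1799, 1943 and 1827 counts in the libraries labelled knockout. The highest knockout-labelled library (52.7 CPM) lay below the lowest control library (70.2 CPM). Dsg2 fell by 31.2%, from 74.0 ± 4.47 to 50.9 ± 1.55 CPM (SD, n = 3 each), or -0.54 on the log2 scale (SE 0.06, edgeR adjusted p = 2.5e-05). An antisense gene, Gm16090, shares 330 exonic bases with it, and had 0 counts in control and 11 under the knockout label, few beside the 8421 and 5569 counts of Dsg2.

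Dsg3, the desmoglein of basal squamous layers and the target of pemphigus vulgaris antibodies, had only 13, 14 and 10 counts in control against 15, 17 and 25 in the libraries labelled knockout. Its CPM values did not overlap between the groups, with 0.396 as the highest control and 0.420 as the lowest knockout-labelled value, yet the difference did not pass (log2 fold change 0.66, 95% confidence interval -0.40 to 1.72, edgeR adjusted p = 0.23). Counting error alone comes to 28.5% of the level in a control library, and the difference was not detectable at this depth. Non-overlap was common: it held for 8 of the 9 tested members and for 76.1% of all tested genes.

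The desmosomal cadherin genes lie side by side on chromosome 18, in the order Dsc3, Dsc2, Dsc1, Dsg1c, Dsg1a, Dsg1b, Dsg4, Dsg3 and Dsg2 in the GENCODE M21 annotation, with the desmocollins on one strand and the desmogleins on the other. Along this cluster only the outermost desmoglein, Dsg2, was abundant in control. Dsg1a and Dsg1b had 0 counts in all 6 libraries, and Dsg1c and Dsg4 had 1 count each, both in control. In the knockout-labelled libraries Dsc2 stood at 649 counts over the group, between Dsc3 with 7 and Dsc1 with 5. The nearest protein-coding neighbour on the desmocollin side, Cdh2 (N-cadherin), had 14 counts in control against 29 in the libraries labelled knockout and was not tested. On the other side Ttr and B4galt6 had 0 counts in all libraries, and Trappc8 rose slightly (log2 fold change 0.18, SE 0.05, edgeR adjusted p = 0.012, and 0.12 with no filter).

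**Figure D2:**
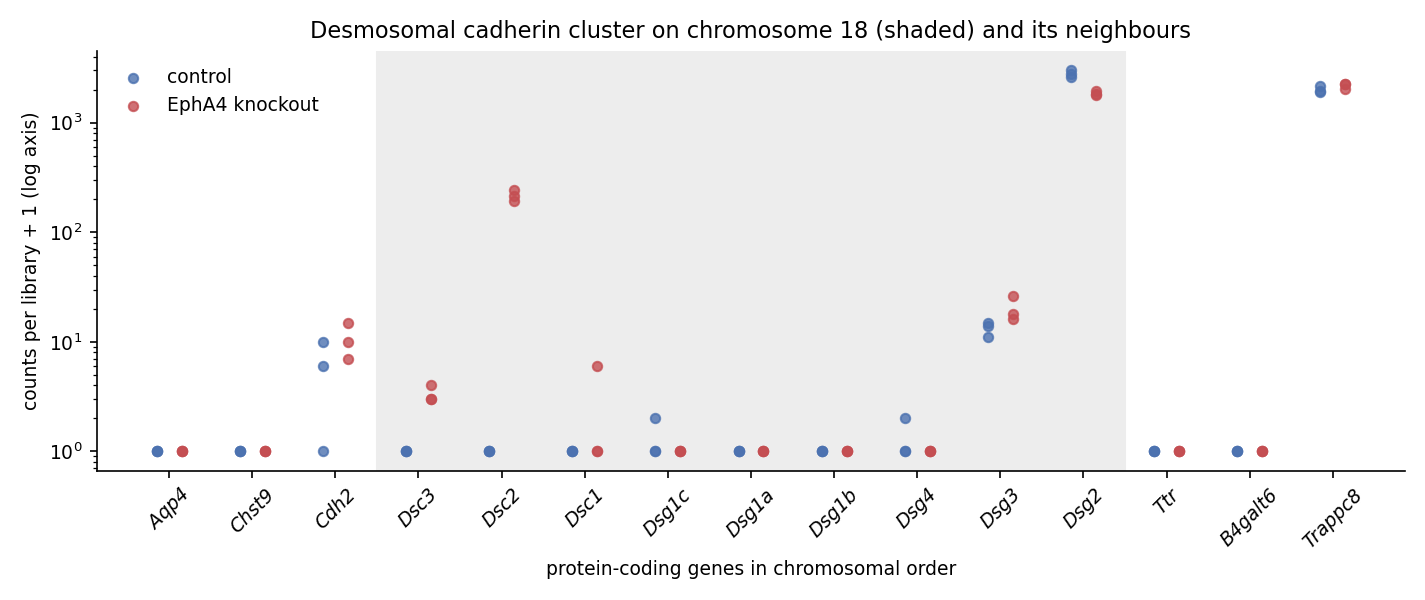
Counts per library plus 1 (log axis) for the 9 desmosomal cadherin genes of chromosome 18 (shaded) and 3 protein-coding neighbours on each side, in chromosomal order and not to scale; blue points are control and red points EphA4 knockout libraries. Dsg2 is present in all libraries, and Dsc2 rises from 0 in control to between 193 and 244 counts.

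On a scale per length (TMM-scaled CPM divided by the merged exon length in kb, from GENCODE M21), Dsg2 made up 99.5% ± 0.12 of the summed 4 desmosomal cadherins in control against 83.5% ± 1.99 in the libraries labelled knockout (SD, n = 3 each). Dsc2 made up 0% in control against 17.4%, 13.3% and 15.1% in the libraries labelled knockout. Dsg3 and Dsc3 held the rest, and within the pair of desmogleins Dsg2 held 99.5% ± 0.12 in control against 98.8% ± 0.34 in the libraries labelled knockout. The gain of Dsc2 did not make up for the drop of Dsg2: the summed cadherins were 8.54, 9.60 and 8.84 CPM per kb in control against 7.45, 7.44 and 7.22 in the libraries labelled knockout. The knockout-labelled sum was thus lower in 3 of 3 libraries, by 1.62 CPM per kb on average. With 3 libraries against 3 the exact two-sided permutation test cannot go below p = 0.1, the value found for this sum and for each of the 8 shares and sums tested (0.1 after adjustment over the 8).

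Among the plaque proteins, desmoplakin and plakoglobin moved in opposite directions. Dsp, the plakin that links the plaque to keratin filaments, had 5801, 5922 and 6079 counts in control against 9910, 10674 and 10303 in the libraries labelled knockout. Every knockout-labelled library exceeded every control library, and the 1.80-fold rise took the level to 282 ± 6.28 CPM, with 157 ± 10.9 CPM in control (SD, n = 3 each; log2 fold change 0.85, SE 0.05, edgeR adjusted p = 7.7e-07). The gene model Gm10129 overlaps 499 of its exonic bases and had 15 counts in control against 13 in the libraries labelled knockout.

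Jup encodes plakoglobin, also called gamma-catenin, which binds desmosomal cadherins and can take the place of beta-catenin on classical cadherins. It was the member with the most counts in control, at 12536, 11839 and 13711, and had 8203, 8222 and 7846 in the knockout-labelled libraries. The groups did not overlap, and Jup fell by 33.6%, from 334 ± 4.69 to 222 ± 7.99 CPM (SD, n = 3 each; log2 fold change -0.59, SE 0.04, edgeR adjusted p = 9.2e-07). Its close relative Ctnnb1 (beta-catenin) fell too, from 762 ± 17.2 to 439 ± 16.2 CPM (log2 fold change -0.80). Per kb, the ratio of Dsp to Jup was 0.308, 0.333 and 0.295 in control against 0.805, 0.865 and 0.875 in the libraries labelled knockout. Per kb, desmoplakin was thus below plakoglobin in all 6 libraries, and closer to it in those labelled knockout.

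Because Dsp and Jup moved apart, the 250 bases before their RefSeq start sites are shown, with those of Pkp4, the remaining member with an entry in the promoter table. The Dsp start and the Pkp4 start shown matched a transcript of GENCODE M21, and the Jup start did not. The Jup window may therefore not lie before the start that these cells use. The sequences are RefSeq's on GRCm38.p6, an earlier build than the GRCm39 named in the submitters' processing notes, and capitals mark matches to the GC box GGGCGG, known for binding Sp and Klf factors, and to CCAAT, on either strand, overlapping matches included.
Dsp, chr13:38151044-38151293, plus strand: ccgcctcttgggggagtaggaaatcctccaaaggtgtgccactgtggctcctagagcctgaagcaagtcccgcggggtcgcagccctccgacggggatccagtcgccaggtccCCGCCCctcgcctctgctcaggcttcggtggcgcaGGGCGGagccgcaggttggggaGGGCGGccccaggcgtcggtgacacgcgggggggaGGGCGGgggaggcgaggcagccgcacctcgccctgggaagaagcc
Jup, chr11:100397791-100398040, minus strand: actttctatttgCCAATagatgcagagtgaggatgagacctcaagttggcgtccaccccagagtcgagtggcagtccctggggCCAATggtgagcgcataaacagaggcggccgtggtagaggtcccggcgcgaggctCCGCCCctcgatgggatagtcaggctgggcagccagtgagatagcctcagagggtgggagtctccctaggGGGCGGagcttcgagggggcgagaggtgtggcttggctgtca
Pkp4, chr2:59160600-59160849, plus strand: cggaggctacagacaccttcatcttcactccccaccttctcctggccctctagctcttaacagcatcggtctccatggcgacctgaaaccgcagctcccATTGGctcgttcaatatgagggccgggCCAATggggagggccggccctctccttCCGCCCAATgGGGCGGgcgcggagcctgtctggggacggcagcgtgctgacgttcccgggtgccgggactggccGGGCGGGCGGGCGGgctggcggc

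The GC box matched 4 times before Dsp, 2 times before Jup and 5 times before Pkp4, and at least once in 32.7% of all 32851 promoters of that length in the table. CCAAT matched 0, 2 and 3 times, and at least once in 33.8% of all. The windows shown held GC boxes both for the members that rose and for the member that fell. The 3 further motifs, searched on both strands, had no match in these 3 windows: CAGGTG, known as the E-box of Snail and ZEB factors and present in 17.2% of all promoters, TGACTCA, known for AP-1 (4.46%), and AACCGGTT, known for grainyhead-like factors (0.116%). The promoter table holds a second entry for Pkp4, not shown (chr2:59161619-59161868), which had 1 match to CAGGTG and 0 to the other 4 motifs. The GC content of the 3 windows was 72.4%, 62.0% and 68.4%. A match is a string of letters and not a measured site.

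The plakophilins are armadillo proteins that cluster the cadherins and bring in desmoplakin. Of their 4 genes 3 were called higher, beside 32.7% of all tested genes called higher and 71.5% in either direction. Pkp1, the plakophilin of suprabasal squamous layers, had 257, 250 and 262 counts in control against 517, 557 and 610 in the libraries labelled knockout. The groups were well apart, and the rise was 2.27-fold, 6.77 ± 0.42 CPM against 15.4 ± 1.10 CPM (SD, n = 3 each; log2 fold change 1.19, SE 0.12, edgeR adjusted p = 1.8e-05). Pkp3, the plakophilin present in most epithelia, had 2933, 2728 and 3151 counts in control against 5114, 5109 and 5138 in the libraries labelled knockout. With no overlap of the groups the level went up 1.82-fold, 77.3 ± 1.76 CPM becoming 140 ± 2.34 CPM (SD, n = 3 each; log2 fold change 0.86, SE 0.04, edgeR adjusted p = 9.8e-08), and its knockout-labelled libraries differed among themselves by little more than counting error (coefficient of variation 1.67%, with 1.40% from counting).

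Pkp4, also called p0071, a relative of the plakophilins that is found at adherens junctions as well as at desmosomes, had 7111, 6248 and 7497 counts in control against 8606, 9356 and 8776 in the libraries labelled knockout. All 3 knockout-labelled libraries were higher, by a factor of 1.34 (183 ± 7.88 to 244 ± 8.02 CPM, SD, n = 3 each; log2 fold change 0.42, SE 0.04, edgeR adjusted p = 2.2e-05). Pkp2, the plakophilin of simple epithelia and heart, had 1676, 1773 and 2159 counts in control against 1601, 1715 and 1486 in the libraries labelled knockout. Its groups overlapped, with 49.1 ± 3.44 CPM in control against 43.9 ± 3.11 CPM in the libraries labelled knockout, and it did not pass (log2 fold change -0.16, 95% confidence interval -0.33 to 0.01, edgeR adjusted p = 0.077). With no filter on low counts Pkp2 passed as lower (log2 fold change -0.23, edgeR adjusted p = 0.018), while its log2 fold change was -0.048 without EphA4 knockout replicate 3 and -0.071 without control replicate 3 (edgeR adjusted p = 0.57 and 0.47). Against a fold of 1.5, tested with edgeR's glmTreat, Dsc2, Dsp, Pkp1 and Pkp3 still passed and Dsg2, Jup and Pkp4 did not.

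Within the plakophilin family the composition per kb differed between the groups, with more Pkp3 and Pkp1 and less Pkp2 and Pkp4 in each knockout-labelled library. Pkp3 held 33.5%, 33.8% and 33.0% of the summed plakophilins in control against 42.5%, 40.6% and 42.3% in the libraries labelled knockout. Pkp2 held 12.9%, 14.8% and 15.3% in control against 8.99%, 9.19% and 8.26% in the libraries labelled knockout. Pkp4 was the largest part in each library, at 50.1% ± 1.22 in control against 46.1% ± 0.88 in the libraries labelled knockout (SD, n = 3 each), and Pkp1 the smallest, at 2.11% ± 0.13 and 3.30% ± 0.28. None of the 4 shares overlapped between the groups, and each had the smallest p that this design allows (exact permutation p = 0.1).

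**Figure D3:**
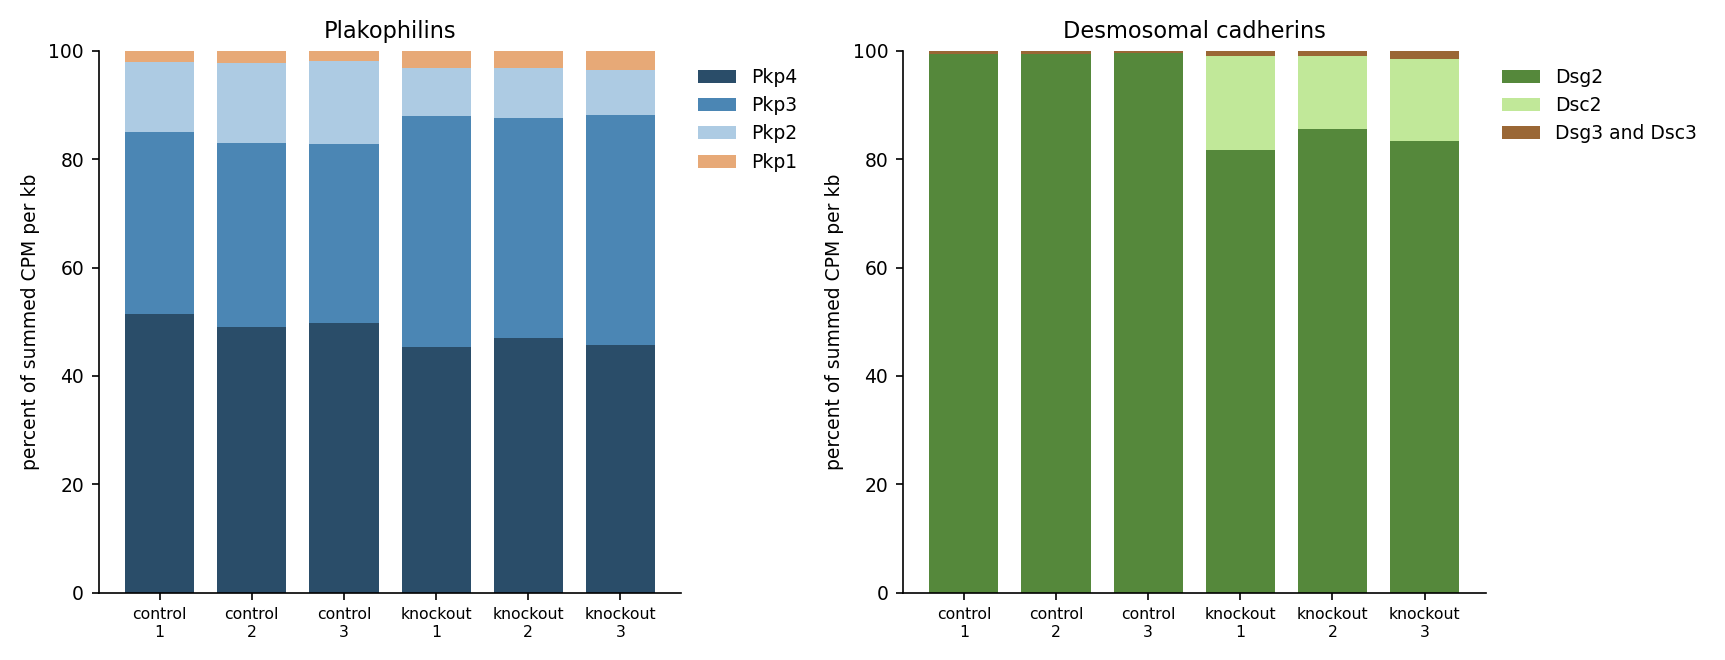
Percent of summed TMM-scaled CPM per kb (bars to 100) held by each plakophilin (left) and each desmosomal cadherin (right) in the 3 control and 3 EphA4 knockout libraries, numbered by replicate. The Pkp3 part is larger in each knockout-labelled library than in each control library, and a Dsc2 part of 13.3% to 17.4% appears beside Dsg2.

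Ordered by CPM per kb, the control libraries had Jup first (51.9 ± 0.73), then Pkp4 (32.0 ± 1.38), Pkp3 (21.4 ± 0.49), Dsp (16.2 ± 1.13), Pkp2 (9.16 ± 0.64), Dsg2 (8.94 ± 0.54), Pkp1 (1.35 ± 0.08) and Dsg3 (0.047 ± 0.012; SD, n = 3 for each). Of these neighbours only Pkp2 and Dsg2 overlapped. In the knockout-labelled libraries Pkp4 came first (42.8 ± 1.41), then Pkp3 (38.8 ± 0.65), Jup (34.5 ± 1.24) and Dsp (29.2 ± 0.65), with no overlap between neighbours. Pkp2 (8.19 ± 0.58), Dsg2 (6.16 ± 0.19), Pkp1 (3.06 ± 0.22), Dsc2 (1.13 ± 0.15), Dsg3 (0.075 ± 0.020) and Dsc3 (0.012 ± 0.003) followed. In both groups Jup, Pkp4, Pkp3 and Dsp were thus above every desmosomal cadherin, and the ratio of Dsg2 to Dsp per kb was 0.552 ± 0.030 in control against 0.211 ± 0.003 in the libraries labelled knockout.

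The order depends on the length used, for Jup because its merged exons (6436 bases) are much longer than its longest transcript (3205 bases). With the longest transcript as length, Jup was first in both groups, at 104 and 69.2 CPM per kb. In control Pkp2 (16.7 ± 1.17 CPM per kb) then came before Dsp (16.3 ± 1.14) and overlapped it, and Pkp2 and Dsg2 no longer overlapped. With that length the groups' sums of the 5 armadillo genes were 188.6 and 188.6 CPM per kb. With merged exons the sums were 116 ± 1.77 and 127 ± 2.47 CPM per kb (SD, n = 3 each), so whether the armadillo sum was higher in the knockout-labelled libraries cannot be read without knowing which transcripts were made. With merged exons the ratio of Jup to the summed plakophilins was 0.812 ± 0.011 in control against 0.371 ± 0.011 in the libraries labelled knockout. With the longest transcript Jup made up 104 of the 188.6 CPM per kb in control, more than the plakophilins together. In the libraries labelled knockout it made up 69.2 of 188.6, less than they did. Jup thus lost ground to the plakophilins with either length, but which was larger in control depends on the length.

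Other genes of desmosomes and of the cornified junctions that replace them were followed in a list of 11, of which 6 were tested, 3 rose and 2 fell. These calls are 83.3% of the tested genes of the list, and the share over all tested genes is 71.5% (32.7% higher and 38.8% lower), against which the counts of the lists that follow are to be read. Ppl (periplakin), a plakin of the desmoplakin family, rose from 71.0 ± 3.64 to 219 ± 8.43 CPM (SD, n = 3 each; log2 fold change 1.63). Its heterodimer partner Evpl (envoplakin) nearly disappeared, from 27.2 ± 1.41 to 0.69 ± 0.22 CPM (log2 fold change -5.29). Perp, a tetraspan membrane protein needed for desmosome stability in skin, rose from 131 ± 2.08 to 253 ± 14.2 CPM (log2 fold change 0.95). Kazn (kazrin), which binds periplakin, passed as higher (log2 fold change 0.28), a call lost with no filter and without control replicate 1, control replicate 2, EphA4 knockout replicate 1 or EphA4 knockout replicate 2 (edgeR adjusted p 0.053 to 0.15), and Pof1b, outside the naming rule for its low level and named after its values were seen, fell (-5.31). The list's median log2 fold change was 0.21.

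Keratins, the filaments that desmoplakin holds, had 3 members higher, 5 lower and 1 not passing of 9 tested (88.9% called, beside 71.5% of all tested genes), with 4 of 13 not tested and a median log2 fold change of -0.76. The simple keratin pair Krt8 and Krt18 rose by log2 fold changes of 0.29 and 0.19, to 1637 ± 22.8 and 962 ± 40.5 CPM, the Krt18 call being lost with no filter on low counts (edgeR adjusted p = 0.11). Krt7 fell from 3039 ± 48.9 to 1798 ± 14.5 CPM and Krt19 from 1698 ± 66.8 to 667 ± 22.4 CPM (log2 fold changes -0.76 and -1.35; SD, n = 3 each). The basal keratin Krt14 was low and fell further, from 3.72 ± 0.26 to 1.83 ± 0.60 CPM, and its partner Krt5 was not tested. Krt6a, the third keratin that rose, went from 31 to 209 counts over the group and lies outside the naming rule for its low level. The summed keratins ran from 6781 to 7104 CPM in control and from 5018 to 5152 CPM in the knockout-labelled libraries.

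Adherens junctions, which share plakoglobin with desmosomes, had 4 members higher, 7 lower and 3 not passing of 14 tested (16 listed; 78.6% called), with a median log2 fold change of -0.23. For Cdh1 (E-cadherin) the rise was small (log2 fold change 0.14) and not called with no filter (edgeR adjusted p = 0.28), and Cdh3 (P-cadherin) fell from 27.1 ± 2.26 to 8.49 ± 0.73 CPM (SD, n = 3 each; log2 fold change -1.67). The catenin gene Ctnnd1 (p120) fell by 1.12 on the log2 scale. The nectin gene Nectin1 had 1014 counts in control against 0 in the libraries labelled knockout, at least 327-fold lower when the same floor of 3 counts per group is used, and Nectin2 fell from 177 ± 10.0 to 31.8 ± 4.00 CPM. Hemidesmosome genes, whose products anchor keratins to the basement membrane, had 4 higher, 3 lower and 1 not passing of 8 tested (9 listed; 87.5% called), with a median of 0.16. Plec (plectin), a plakin of hemidesmosomes, rose from 461 ± 25.7 to 1398 ± 8.08 CPM (log2 fold change 1.60) and the integrin gene Itga6 rose by 0.54, while the laminin gene Lamb3 and the tetraspanin gene Cd151 fell (-0.65 and -0.62). The other plakin gene of the list, Dst, lies outside the naming rule and did not pass (log2 fold change 0.06, edgeR adjusted p = 0.32).

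Genes that modify or turn over desmosomes had 7 higher, 5 lower and 2 not passing of 14 (85.7% called, beside 71.5% of all tested genes), with a median log2 fold change of 0.10. Atp2a2, the calcium pump mutated in Darier disease, rose from 319 ± 13.3 to 620 ± 12.6 CPM (SD, n = 3 each; log2 fold change 0.96). Zdhhc5, a palmitoyl transferase, and Tjp1, a tight junction scaffold, rose by log2 fold changes of 0.76 and 0.64, and Flot1, a membrane raft protein that associates with desmogleins, fell by 0.83 on the log2 scale. Prkca, a kinase that loosens desmosomes, and Adam10, a protease that sheds Dsg2, did not pass (log2 fold changes -0.07 and -0.06). Adam17, another protease of the list, was lower (log2 fold change -0.31, edgeR adjusted p = 0.00015). Prkca, Adam10 and Adam17 lie outside the naming rule and were named after their values were seen.

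Transcription factors of epithelial identity and of epithelial-mesenchymal transition had 2 members higher, 13 lower and 3 not passing of 18 tested (19 listed; 83.3% called, beside 71.5% of all tested genes, and 38.8% of all lower), with a median log2 fold change of -1.15. Twist2, Ehf, Snai2 and Tfap2c had 7044, 2302, 835 and 134 counts in control against 26, 26, 27 and 5. These entered the test only through the control libraries, so their direction was nearly fixed and the count of lower genes adds no support. Tfap2c lies outside the naming rule. Repressors known to act on epithelial junction genes were among the lower ones: Zeb1 fell from 14.7 ± 1.24 to 1.84 ± 0.13 CPM (SD, n = 3 each), Snai2 from 7.31 ± 1.09 to 0.25 ± 0.05 CPM, and Twist2 from 61.6 ± 2.28 to 0.24 ± 0.19 CPM. Twist1, a repressor of the same family, did not pass (log2 fold change 0.21, edgeR adjusted p = 0.42), and its groups overlapped. The epithelial factor Ehf fell as well, from 20.3 ± 1.90 to 0.24 ± 0.14 CPM. The 2 that rose, named after their values were seen, were Grhl2 and Grhl1, grainyhead-like factors of epithelia (log2 fold changes 1.08 and 0.61). The Grhl1 call was lost with no filter and without control replicate 1, control replicate 3, EphA4 knockout replicate 1 or EphA4 knockout replicate 2 (edgeR adjusted p 0.061 to 0.091). The third grainyhead-like gene, Grhl3, fell from 7.81 ± 0.39 to 2.58 ± 0.97 CPM (SD, n = 3 each; log2 fold change -1.60, edgeR adjusted p = 0.00060), so the family's members went both ways. The part of these factors in the desmosome differences was not tested.

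**Figure D4:**
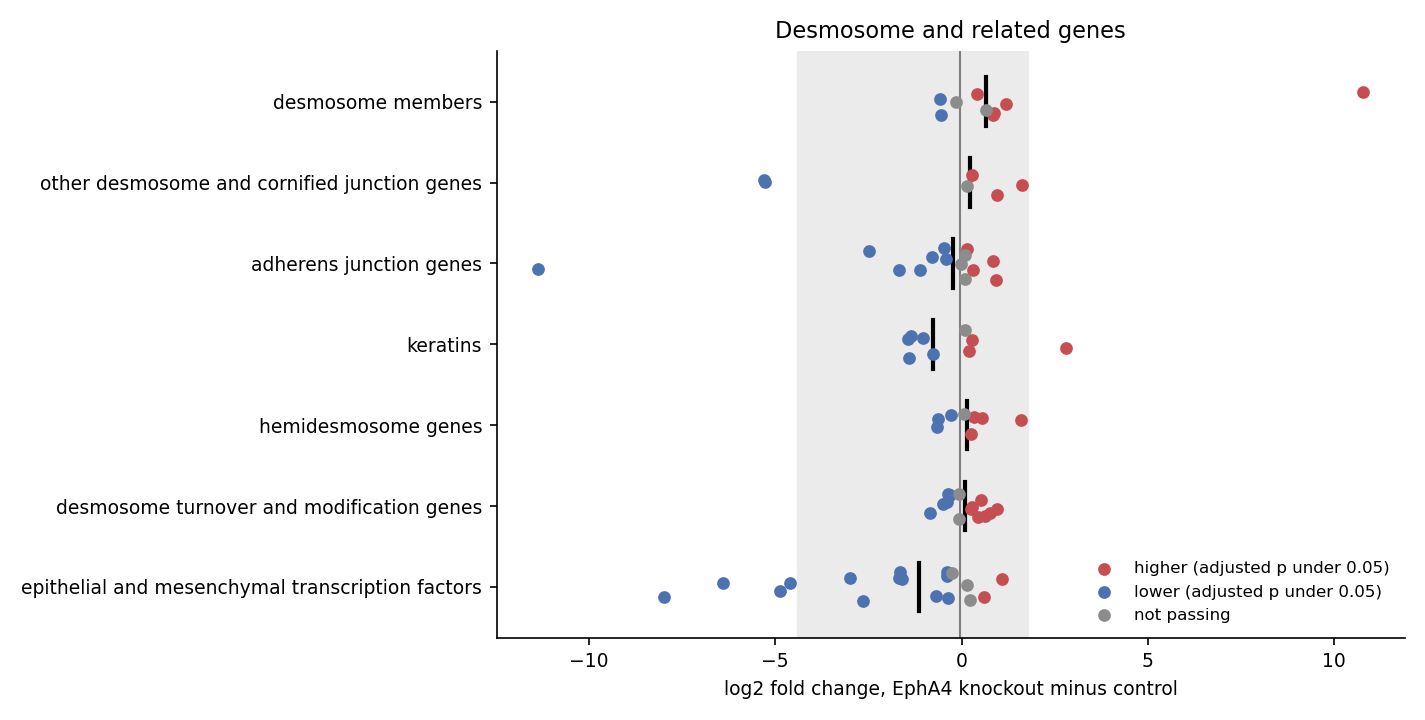
log2 fold change (EphA4 knockout minus control) of each tested gene in the desmosome set and 6 related lists; red and blue points passed an adjusted p of 0.05 as higher or lower, grey did not, black ticks are list medians, and vertical position within a list is arbitrary. The grey band spans the 5th to 95th percentile of all tested genes (-4.38 to 1.78) and the grey line is their median; of the desmosome genes only Dsc2 lies outside the band.

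Markers of other cell types were measured because Dsg2, Dsp, Jup and Pkp2 are also made outside epithelia. All 5 tested fibroblast markers of 9 were lower, beside 38.8% of all tested genes. Of these, Col1a1, Col3a1, Dcn and Pdgfrb had 1673, 2349, 97 and 420 counts in control against 5, 11, 0 and 1. They passed the filter on low counts only through the control libraries, so their direction was nearly fixed and the count adds no support. The list's sum ran from 48.4 to 51.4 CPM in control and from 1.96 to 2.03 CPM in the knockout-labelled libraries. Lum was at 0 in all libraries, and Col1a2, Thy1 and Postn had 29 counts or fewer over a group. Col1a2, which was not tested, was higher in each knockout-labelled library, with 5 counts over the control libraries and 29 over those labelled knockout. Muscle markers summed to 286 to 309 CPM in control against 40.3 to 48.5 CPM in the libraries labelled knockout. Nearly all of that was Tnnt2 (290 ± 12.2 and 43.3 ± 3.29 CPM; SD, n = 3 each), with Myod1 at 0 and Myh6, Myh7 and Actn2 at 7 counts or fewer over a group. Of the 4 tested muscle markers 3 were lower, namely Tnnt2, Tnni3 (378 counts in control against 14) and Des (62 against 2). Tnni3 and Des likewise entered the test only through the control libraries. Acta1 was tested and not called (edgeR adjusted p = 0.31). Leukocyte markers summed to 17.5 to 19.8 and 4.31 to 4.83 CPM, almost all from Cd68, with Cd3e, Itgam and Adgre1 at 0. Endothelial and melanocyte markers summed to at most 1.46 and 2.60 CPM in any library. The part of these genes in the desmosome differences was not tested, and in bulk RNA fewer cells of a type and less RNA per cell cannot be told apart. Without EphA4 knockout replicate 3 the same 5 members were higher and the same 2 lower.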

How the data were processed

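RNA-seq counts of 6 libraries (3 control, 3 EphA4 knockout) were used. Values are the raw counts that the authors deposited, by gene symbol. The submitters' processing notes name STAR and GRCm39; no source used here gives the counter, its strand setting or its annotation. The symbols equal those of GENCODE M21 (55418 of 55418 matched), used for exon lengths and gene order. Library totals of 35115926 to 41775031 counts make 1 count 0.0239 to 0.0285 CPM. Genes were filtered with filterByExpr (15199 of 28042 with any count kept), TMM-scaled and tested with edgeR 4.0.16 (glmQLFit, glmQLFTest, group as only term, two-sided, Benjamini-Hochberg, threshold 0.05) in R 4.3.3. SE was taken as |log2 fold change| over the root of F. Shares and sums used exact permutation tests (scipy 1.17.1). Alternatives were other scalings and filters, limma-voom (limma 3.58.1), a replicate block, DESeq2 1.42.0, omission of the 20 highest genes, a threshold of 0.01, glmTreat, each library left out, and another length. The script was tested on simulated data. Promoters came from RefSeq's GRCm38.p6 table, which held Dsp, Jup and Pkp4 (2 entries, the first shown). Members and lists were chosen with earlier results of these data known. All 10 members were named; from each related list up to 4 called genes with average log2 CPM of at least 1 and the largest changes, plus Ctnnb1, Cdh1, Cdh3, Krt5, Krt14, Krt8, Krt18 and Trp63. Reads of overlapping genes cannot be told apart, as strand use is unstated.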

Additional observations from a re-analysis of the deposited data

How the results depend on the processing

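The counts of 5 higher and 2 lower desmosome genes stayed within 1.5 times under every setting run except glmTreat against a fold of 1.5, which called 4 higher and 0 lower members and 5473 genes in all, against 10867. With no filter 3 members were lower, Pkp2 being added. Leaving out each library in turn gave 5 higher and 2 lower members each time and 10045 to 11338 genes in all. The labels do not say whether same-numbered replicates are pairs. Their deviations from the group means had correlations across genes of -0.003, 0.029 and 0.008, which cannot decide it, as counting noise can hide a shared deviation. With a replicate block 5 members were higher, 2 lower and 10339 genes passed. Leaving out libraries moved the difference in the summed cadherins between -1.85 and -1.32 CPM per kb, in Dsp between 12.4 and 13.6, in the armadillo sum between 10.7 and 13.0, and in the share of Pkp3 between 7.99 and 8.99 percentage points. With the longest transcript as length each share and sum kept its direction, the armadillo difference shrinking to almost nothing. Depth limits Dsg3 and Dsc3, which rest on 25 counts or fewer per library.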
